A study of Rattus norvegicus with 28 samples.

Results

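Cholesterol synthesis was followed here through 9 of its enzymes, Hmgcs1, Mvd, Idi1, Fdps, Fdft1, Sqle, Lss, Cyp51 and Dhcr7, in rat spinal cord after contusive spinal cord injury (SCI) and after transplantation of neural progenitor cells (NPC). The 9 genes were taken by name from the 35469 features of the array, where they are read by 12 of 41012 probes. They were chosen from measured values, with earlier results of these data known. Their differences from the T0 group, which was not injured, are treated as part of that choice and are described without a test. Every probe of the 9 genes was well above background on all 28 arrays.

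Cells build cholesterol from acetyl-CoA. HMG-CoA synthase (Hmgcs1) acts at the head of the route to mevalonate, mevalonate is turned into isoprenoids by Mvd, Idi1 and Fdps, Fdft1 and Sqle make squalene and its epoxide, Lss closes the sterol rings, and Cyp51, Dhcr7 and others trim the product to cholesterol. Cholesterol hardly crosses from blood into the central nervous system, where it is made locally and where myelin, the sheath laid down by oligodendrocytes, holds much of it. When a cell's sterol level falls, the transcription factor SREBP-2 (Srebf2) raises the transcription of these enzymes as a group.

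Total RNA came from thoracic cord tissue of adult female Sprague Dawley rats, 1.5 cm long, with 4 arrays in each of 7 groups. T0 animals were not contused (the labels call them sham, the paper uninjured). T1, T2, T4 and T8 animals received a contusion of 250 kdyn and were killed 1, 2, 4 and 8 weeks later. T1_NPC animals received NPCs right after the contusion and were killed at 1 week, and T2_NPC animals received them 1 week after it and were killed at 2 weeks. The NPCs had been grown as spheres from cords of other adult rats taken 1 week after SCI. Per the study's methods, injured controls received cell-free medium in place of cells, and the care of all operated animals included the immunosuppressant FK-506 at 1 mg/kg, timed from the day before transplantation. The labels record FK-506 for T1_NPC and T2_NPC only. Whole tissue was measured, so that fewer cells of a type and less RNA per cell cannot be told apart.

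Levels are log2 normalized intensities from the table of values that the authors deposited, in which all arrays share 1 distribution. A difference of 1 is therefore a 2-fold difference. Ranked by value, each column of that table matches 1 scanner output and no other, but for 16 of the 28 arrays this output was deposited under a sample of another group. The 12 arrays without such a conflict were T0 replicates 1 and 3, T1 replicate 1, T2 replicates 2 and 3, T4 replicate 4, T8 replicates 2 and 4, and all of T2_NPC. Results are given by the table of values, and with those 12 arrays where a comparison allows it. The share of probes well above background ranged from 74.5% to 82.7% over the arrays. By this match the time course lay on 5 slides scanned in 2 sessions, each with every one of its groups, whereas T1_NPC filled 1 slide and T2_NPC another, both in the third session. By the samples the outputs were deposited for, T1_NPC lay in the second session, and T0 replicate 2, T1 replicate 4, T4 replicate 1 and T8 replicate 3 in the third.

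After SCI the 9 enzymes formed a lower block that persisted from 1 to 8 weeks, with Dhcr7 as the exception at the later times. The 9 differences from T0 had a median of -1.87 at T1 (3.65-fold lower), -2.17 at T4 and -2.50 at T8 (5.64-fold lower), with T2 between T1 and T4. Over all features the median difference was between -0.10 and -0.04. All arrays of the injured group lay below every T0 array for 9 of 9 enzymes at T1 and T2 and for 8 of 9 at T4 and T8. Over all features this share was 23.6%, 20.5%, 21.1% and 21.3% in the order of the weeks. It was 14.3% for all 4 times together, which held for 8 of the 9. Nothing is read from these counts, since the same differences are part of the choice of genes. With the 12 arrays that are not in conflict, the medians were -1.82, -1.92, -2.27 and -2.32. The time-course arrays among these 12 are those of the first scan session, and within the second the medians were -1.80 at T1 and -2.47 at T8. With the scanner outputs under the samples they were deposited for, the medians shrank to between -1.25 (T8) and -0.42 (T2). In that arrangement the outputs named T0 replicates 2 and 4 are those matched to the columns of T1_NPC replicate 2 and T4 replicate 1. Hmgcs1 was 11.47 and 11.77 in these columns, beside 14.42 and 14.32 in T0 replicates 1 and 3. The T0 group as deposited thus holds both low and high levels.

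**Figure D1:**
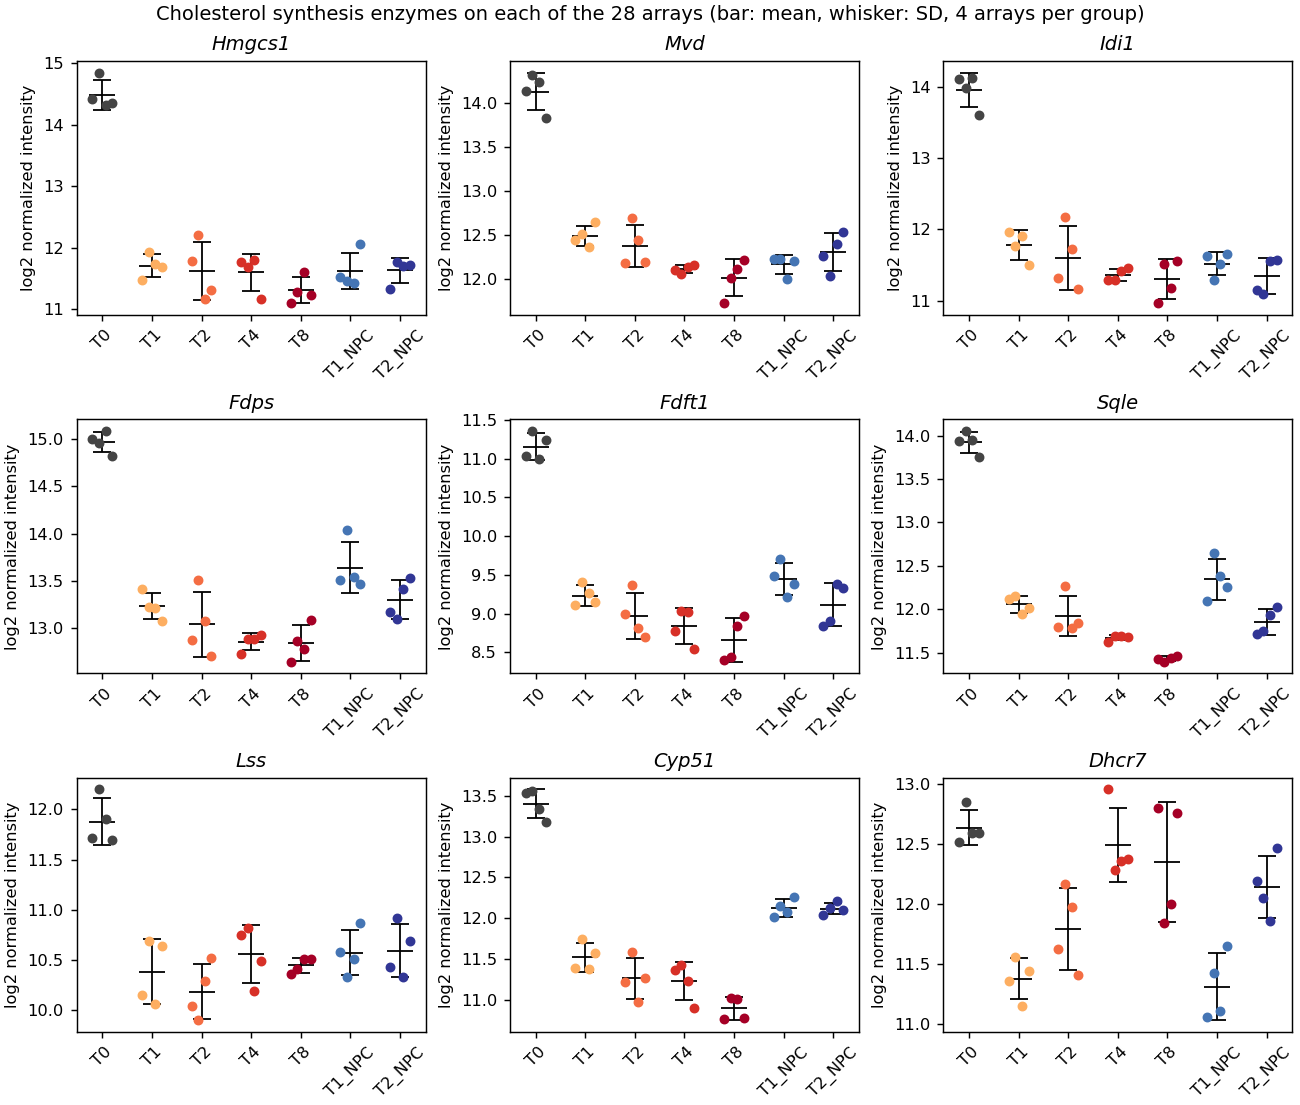
Log2 normalized intensity (vertical axis) of each enzyme on each of the 28 arrays, by group (horizontal axis). Points are arrays, bars are group means and whiskers are SDs over 4 arrays. For 8 of the 9 enzymes every injured array lies below every T0 array, whereas Dhcr7 overlaps T0 at T4 and T8, and Cyp51 is higher in T1_NPC and T2_NPC than in T1 and T2.

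Hmgcs1, which condenses acetyl-CoA units into HMG-CoA at the head of the pathway, showed the widest gap of the 9 enzymes at all 4 times. Its level on the T0 arrays was 14.42, 14.84, 14.32 and 14.35. On the T1 arrays it was 11.47, 11.94, 11.74 and 11.69, and on the T8 arrays 11.10, 11.29, 11.60 and 11.24. The T0 arrays stood at least 2 log2 units above all of these. The means of T0 and T1 differed 6.82-fold, and those of T0 and T8 9.03-fold. T2 (11.78, 12.21, 11.17 and 11.32) and T4 (11.77, 11.68, 11.80 and 11.16) lay in the same low range, with T2 replicate 2 the highest injured array.

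The 3 enzymes that carry mevalonate to farnesyl diphosphate, the branch point for sterols and other isoprenoids, stayed low as well. Mvd, which decarboxylates mevalonate diphosphate, had a mean level of 14.13 ± 0.22 (SD, n = 4) on T0 arrays, against 12.49 ± 0.12 for T1 and 12.02 ± 0.21 for T8. Idi1, the isomerase of the resulting isoprenoid unit, averaged 13.96 ± 0.24, 11.78 ± 0.21 and 11.30 ± 0.28 in the same groups. Fdps, which makes farnesyl diphosphate, averaged 14.97 ± 0.11, 13.23 ± 0.14 and 12.84 ± 0.19. In each of them T0 and the injured groups did not overlap at any time. The 2 probes of Idi1 differed from T0 to T1 by -2.17 each, and those of Fdps by -1.67 and -1.80, so the probes of these genes moved together.

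Fdft1 and Sqle act at the first steps that lead to sterols only. Fdft1, squalene synthase, had levels from 11 to 11.36 in T0, 9.11, 9.40, 9.26 and 9.15 in T1, and 8.40, 8.44, 8.84 and 8.96 in T8. Sqle, squalene epoxidase, had 13.93, 14.05, 13.96 and 13.76 in T0, 12.12, 12.16, 11.94 and 12.01 in T1, and 11.43, 11.39, 11.44 and 11.45 in T8. T0, T1 and T8 were thus stacked in this order without overlap for both genes. In Sqle the T4 arrays (11.63, 11.69, 11.69 and 11.68) also lay wholly between T1 and T8.

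Of the ring-forming and late enzymes, Lss and Cyp51 were low throughout and Dhcr7 was not. Lss, lanosterol synthase, averaged 11.88 ± 0.23 in T0, 10.38 ± 0.32 in T1 and 10.45 ± 0.08 in T8. Cyp51, the lanosterol demethylase, averaged 13.40 ± 0.18, 11.52 ± 0.17 and 10.90 ± 0.14. Dhcr7, which reduces 7-dehydrocholesterol to cholesterol in the last step, had levels of 12.51, 12.84, 12.59 and 12.58 in T0 and 11.36, 11.55, 11.15 and 11.44 in T1. On the T8 arrays it was 12.80, 11.84, 12 and 12.75. Dhcr7 was thus 2.39-fold lower than T0 at T1, with no overlap, while at T8 its arrays spread from well below T0 to within it.

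**Figure D2:**
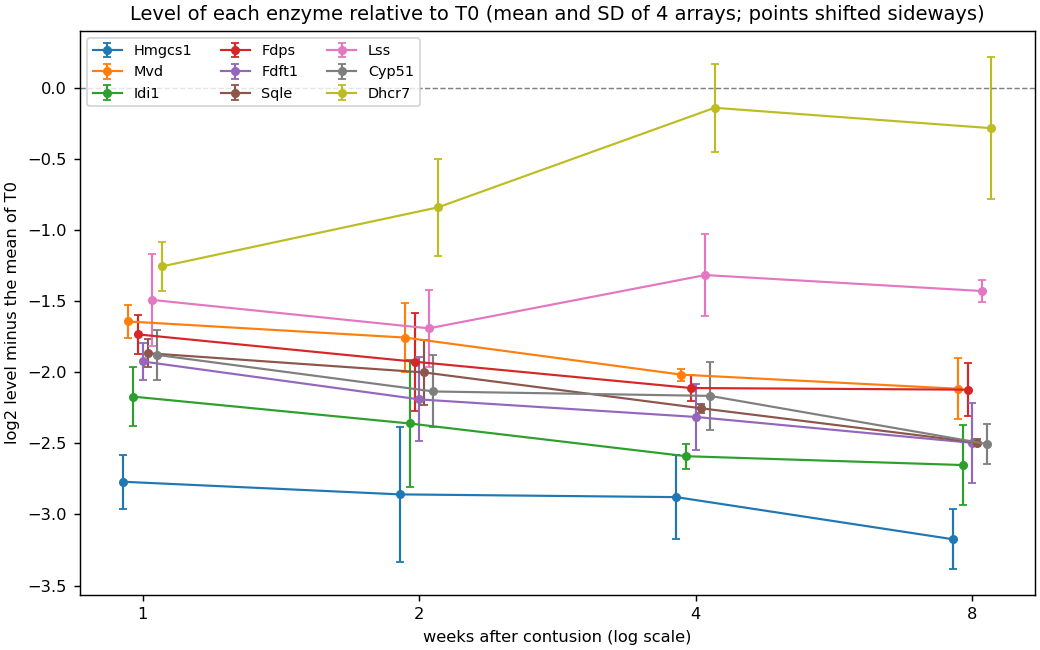
Level of each enzyme relative to the mean of T0 (vertical axis, log2) against weeks after contusion (horizontal axis, log scale). Points are means and whiskers SDs over 4 arrays. Dhcr7 goes from -1.26 at 1 week to -0.29 at 8 weeks, Lss stays between -1.69 and -1.32, and the other lines lie between -1.64 and -3.17 and end lower than they start.

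Comparisons among the injured groups were tested with limma over all features, with Benjamini-Hochberg adjustment. The genes were chosen with these data known, and these p-values do not account for that choice. Between 1 and 8 weeks (T8 against T1), 5 of the 9 enzymes were called at an adjusted p under 0.05, against 9.87% of all features. Sqle fell by 0.63 (SE 0.12, limma adjusted p = 0.000694), Cyp51 fell by 0.63 (SE 0.13, limma adjusted p = 0.00249), Fdft1 fell by 0.57 (SE 0.17, limma adjusted p = 0.0304) and Mvd fell by 0.47 (SE 0.13, limma adjusted p = 0.0229). Dhcr7 rose by 0.97 (SE 0.21, limma adjusted p = 0.00355). Downward calls made up 4.42% of all features and upward calls 5.45%. Idi1 (-0.48, 95% interval -0.86 to -0.10), Fdps (-0.39, -0.70 to -0.07) and Hmgcs1 (-0.40, -0.82 to 0.01) were not called, and neither was Lss (0.06, -0.31 to 0.43).

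The 4 enzymes that fell had every T8 array below every T1 array, which 8.06% of features did, and Dhcr7 had every T8 array above them (8.29%). Cyp51 had levels of 11.39, 11.74, 11.38 and 11.58 in T1 and 10.76, 11.03, 11.01 and 10.78 in T8. Mvd had 12.44, 12.50, 12.36 and 12.64 in T1 and 11.72, 12.01, 12.12 and 12.21 in T8. The gap was narrow for Mvd, and the call of Mvd or Fdft1 was lost without T1 replicate 2, 3 or 4 or T8 replicate 1 or 2, which left 3 or 4 calls. The 12 arrays that are not in conflict hold 1 T1 and 2 T8 arrays, and gave 0 calls there, with differences of -0.70 for Sqle, -0.48 for Cyp51 and 0.94 for Dhcr7. The median difference of the 9 enzymes was -0.41 in these arrays, which are the first session, and -0.58 in the second session. With the session as a fixed block, 7 of 9 were called, Idi1 and Fdps in addition. The share of all features called in that fit is not reported here, and nothing is read from the higher count.

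No single step of the time course held a called enzyme. limma called 0 of 9 for T2 against T1 (background 1.48% of features), 0 for T4 against T2 (0.0761%) and 0 for T8 against T4 (0.0902%). At an unadjusted p under 0.05 there were 0, 3 and 2 of them, beside 4932, 3198 and 1716 of the 35469 features. The 3 between T2 and T4 were Dhcr7 (0.70, 95% interval 0.26 to 1.14), Lss (0.37, 0.01 to 0.74) and Sqle (-0.25, -0.49 to -0.01), and the 2 between T4 and T8 were Cyp51 (-0.34, -0.61 to -0.06) and Sqle (-0.24).

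Transplanted and injured cords were compared at the same time after SCI. Of the 9 enzymes limma called Cyp51 alone, higher in both comparisons, against a background of 11.9% of features for T1_NPC against T1 and 9.47% for T2_NPC against T2. A count of 1 in 9 is near these shares, and Cyp51 was not tested against the other enzymes. Cyp51 is read by a single probe, A_44_P168285, at chr4:26769628-26769687 of the rn4 build. Its level was 12.01, 12.15, 12.08 and 12.27 in T1_NPC, and 12.04, 12.13, 12.21 and 12.10 in T2_NPC. On the T2 arrays it was 11.22, 11.59, 10.97 and 11.27, so that each transplanted group lay wholly above its injured group, as 8.12% of features did at 1 week and 9.97% at 2 weeks. The difference was 0.61 at 1 week (SE 0.13, limma adjusted p = 0.00458) and 0.85 at 2 weeks (SE 0.13, limma adjusted p = 0.000282), and both transplanted groups remained below every T0 array (lowest 13.18).

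The Cyp51 difference at 2 weeks was 0.84 (limma adjusted p = 0.0144) with the arrays that are not in conflict, whereas all T1_NPC arrays are in conflict. In that fit the T2 arrays were replicates 2 and 3, both of the first scan session. More of all features were called there than in the main fit, as given at the end. With the scanner outputs under the samples they were deposited for, Cyp51 was at -0.77 in T1_NPC against T1, and it was called at neither time. With the slide as a random block, the limma adjusted p was 0.0192 at 1 week and 0.00209 at 2 weeks. By the match each transplanted group filled a slide of its own, so this fit cannot tell the slide from transplantation. By the match of arrays to outputs both transplanted groups came from the third scan session, which then held no other group, so that transplantation and session cannot be told apart in any of these differences. The labels record FK-506 for the transplanted groups only. If the injured controls lacked it, the drug cannot be told apart from transplantation either.

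The remaining 8 enzymes were not called. Among them, Fdps lay wholly above T1 in T1_NPC and Mvd wholly below it (8.20% of features lay below). At 1 week the differences ran from -0.32 for Mvd (95% interval -0.60 to -0.05) to 0.41 for Fdps (0.09 to 0.72). At 2 weeks they ran from -0.25 for Idi1 (-0.63 to 0.13) to 0.41 for Lss (0.04 to 0.77). At an unadjusted p under 0.05, 4 enzymes at 1 week and 2 at 2 weeks passed, Cyp51 among them in both. Of the 35469 features, 9518 passed at 1 week and 8604 at 2 weeks. The effect of transplantation itself differed between the times for 0 of 9 enzymes (background 0.299%). Sqle alone passed an unadjusted p under 0.05 there (-0.35, 95% interval -0.69 to -0.01), as did 3969 of all features. Every array of both transplanted groups lay below every T0 array for 9 of 9 enzymes, beside 24.4% of all features for T1_NPC and 26.2% for T2_NPC.

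The 2 probes of Hmgcs1 went apart after transplantation. A_44_P487240 (chr2:51751804-51751863, rn4, plus strand), which starts at base 1407 of the transcript, was 0.41 and 0.50 higher in the transplanted groups at 1 and 2 weeks (limma adjusted p = 0.276 and 0.195 among single probes). A_43_P11890 (chr2:51754420-51754478), which starts at base 3109, was -0.58 at 1 week (limma adjusted p = 0.0447) and -0.48 at 2 weeks (limma adjusted p = 0.109). The level of the first minus the second averaged -4.22 ± 0.09 (SD, n = 4) in T0, between -4.68 and -4.61 in T1 to T8, -3.69 ± 0.32 in T1_NPC and -3.67 ± 0.21 in T2_NPC. The transplanted arrays did not overlap with the others, whose highest value was -4.08, since their own lowest was -4.04. That gap is narrow. The share of other genes whose probes part in this way is not reported here, and nothing is read from the lack of overlap. By the same match the difference between probes moved with the third session as it did with transplantation, and its cause was not tested.

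**Figure D3:**
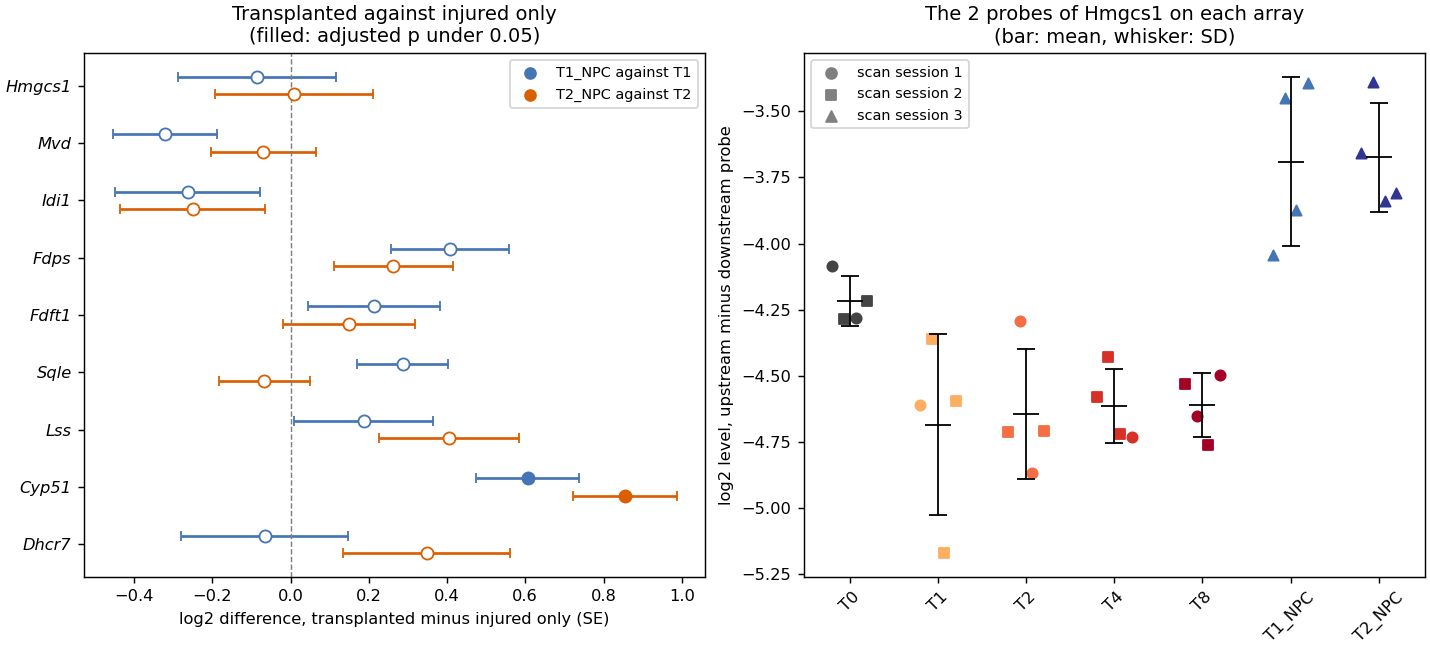
Left, log2 difference between transplanted and injured cords (horizontal axis, whiskers are SE) for each enzyme at 1 and 2 weeks, where filled points have an adjusted p under 0.05, which holds for Cyp51 at 0.61 and 0.85. Right, level of the upstream minus the downstream probe of Hmgcs1 on each array (vertical axis, log2) by group, with mean and SD, where the shape of a point gives the scan session and the transplanted groups lie above -4.08.

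Ordered by their means, 8 of the 9 enzymes had T0 highest and apart from the next group, and 7 had T8 lowest. Fdps, Fdft1, Sqle and Cyp51 had T1_NPC next to T0, Lss had T2_NPC, and Hmgcs1, Mvd and Idi1 had T1. Beyond T0, neighbours in these orders overlapped except in Sqle, whose T4 and T8 groups stood apart from the group above each, and in Cyp51, whose transplanted groups stood apart from T1. The order of Dhcr7 was T0, T4, T8, T2_NPC, T2, T1 and T1_NPC, with all neighbours overlapping.

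The promoters of 7 of the 9 genes were found in the RefSeq table (build GRCr8), and the 250 bases before the transcription start were searched on both strands. The sequences of Hmgcs1, Fdps, Cyp51 and Dhcr7 are shown from 5′ to 3′ on the strand of the gene. Hmgcs1 had the widest gap to T0, and Fdps held a match to a searched sterol response element. Cyp51 was the enzyme called after transplantation, and Dhcr7 the enzyme called higher at T8 than at T1. Capitals mark the CCAAT box (CCAAT, or ATTGG on the other strand) and a sterol response element (TCACACGAG).
Hmgcs1, chr2:53382054-53382303, plus strand: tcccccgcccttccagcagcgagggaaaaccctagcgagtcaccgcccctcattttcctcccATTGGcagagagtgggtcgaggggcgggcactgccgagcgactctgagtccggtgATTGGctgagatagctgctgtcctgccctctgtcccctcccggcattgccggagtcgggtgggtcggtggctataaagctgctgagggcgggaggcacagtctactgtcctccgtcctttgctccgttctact
Fdps, chr2:176804817-176805066, minus strand: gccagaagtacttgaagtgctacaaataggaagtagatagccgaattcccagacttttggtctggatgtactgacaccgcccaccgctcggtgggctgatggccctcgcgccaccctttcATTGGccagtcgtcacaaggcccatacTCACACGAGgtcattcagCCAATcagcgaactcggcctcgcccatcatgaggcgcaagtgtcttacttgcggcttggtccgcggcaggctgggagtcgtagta
Cyp51, chr4:30991443-30991692, plus strand: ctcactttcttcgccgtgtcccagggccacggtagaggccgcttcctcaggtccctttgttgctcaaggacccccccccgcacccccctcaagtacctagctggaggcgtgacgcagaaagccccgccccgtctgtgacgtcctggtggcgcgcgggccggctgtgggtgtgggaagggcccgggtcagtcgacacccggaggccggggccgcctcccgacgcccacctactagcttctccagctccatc
Dhcr7, chr1:208444184-208444433, plus strand: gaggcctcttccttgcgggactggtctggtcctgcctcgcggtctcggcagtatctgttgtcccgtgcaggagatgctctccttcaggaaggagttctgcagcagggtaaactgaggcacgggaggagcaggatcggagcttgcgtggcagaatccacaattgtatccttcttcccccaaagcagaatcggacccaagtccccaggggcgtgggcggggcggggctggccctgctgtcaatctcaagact

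TCACACGAG, the shortened sterol response element 3, was in 1 of the 7 promoters, that of Fdps, between 103 and 95 bases before the start, and in 0.0986% of all 33469 promoters of this length. A CCAAT box was in 5 of 7 (Hmgcs1, Mvd, Idi1, Fdps and Lss) and in 34.0% of all promoters, with 2 of them each in Hmgcs1, Idi1 and Fdps. The windows of Cyp51 and Dhcr7 held none, as the absence of capitals shows. The GC box GGGCGG was in 6 of 7, all but Idi1, and in 30.5% of all. A further sterol response element, TCACNCCAC, was in 0 of 7 and in 0.974% of all promoters. Both elements were searched as exact shortened strings, which miss variant forms, so nothing is read from a match or its absence. No match overlapped a match of another motif. The bases G and C made up 52.8% to 69.2% of the 7 windows, and 51.2% at the median of all promoters.

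The other enzymes of the pathway were tested against T0, and most were lower. This gene list and those that follow were chosen with earlier results of these data known. The counts and p-values do not account for that choice and are no independent check on the enzymes followed above. Of 13 further synthesis enzymes, limma called 12 lower than T0 at each of the 4 times, against 25.1%, 22.2%, 21.0% and 21.5% of all features. At T2 the count was 11 without T0 replicate 1, T0 replicate 3 or T2 replicate 1, since Ggps1 then lost its call. Their median difference was -1.42 at T1 and -1.73 at T8. Sc4mol, which removes methyl groups from the sterol ring, fell by 1.78 at T1 (limma adjusted p = 1.4e-11) and fell by 1.93 at T8 (limma adjusted p = 6.05e-12). Sc5dl, a sterol desaturase, had differences of -1.68 and -1.86, both called, and Tm7sf2, a sterol reductase, -2.09 and -2.60, both called. Ebp, a sterol isomerase, and Ggps1, which draws farnesyl diphosphate away to protein prenylation, fell least, by 0.58 and 0.47 at T1. Lbr, a sterol reductase that is also an inner nuclear membrane protein, was the 1 gene not called lower, and rose by 0.72 at T1 (limma adjusted p = 0.00923). With the scanner outputs under the samples they were deposited for, where T0 holds low and high levels of Hmgcs1, 0 of 13 were called at any time.

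From T1 to T8, 3 of these 13 fell (4.42% of all features did), among them Lbr by 0.81 (limma adjusted p = 0.0169), whose mean was 5.40 in T0, 6.13 in T1 and 5.31 in T8. After transplantation, Tm7sf2 fell by 0.76 at 1 week (limma adjusted p = 0.0122) and Nsdhl rose by 0.33 at 2 weeks (limma adjusted p = 0.022). In each comparison the other 12 were not called, beside 11.9% of all features called at 1 week and 9.47% at 2 weeks.

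Among 11 genes for the control of synthesis and uptake, 7 were called lower and 3 higher at T1, and 5 lower and 2 higher at T8. Upward calls made up 19.1%, 17.7%, 17.5% and 18.2% of all features from T1 to T8. Downward calls made up 25.1% at T1 and 21.5% at T8. Insig1, itself a target of SREBP-2 that holds it back, fell, with differences of -2.0012 at T1 and -2.36 at T8. Srebf2 fell by 0.91 and by 0.73 (limma adjusted p at most 9.66e-05 for both genes). Mylip, a ubiquitin ligase, rose by 1.72 and 1.59. In T2_NPC against T2, Srebf1 rose by 0.66 (limma adjusted p = 0.0197) and Mbtps1 by 0.79 (limma adjusted p = 0.0464), while Stard4, a sterol carrier, fell by 0.47 (limma adjusted p = 0.0422). The mean level of Srebf1 was low, 4.01 in T2 and 4.67 in T2_NPC, and dim probes were not filtered out. At 1 week 0 of 11 were called. The shares of all features called were 11.9% at 1 week and 9.47% at 2 weeks.

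Genes for export, storage and conversion of cholesterol mostly ran the other way. Of 14 measured, 10 were called higher (19.1% of all features) and 3 lower (25.1%) at T1. At T8, 11 were called higher (18.2%) and 2 lower (21.5%). Abca1, which exports cholesterol to lipoprotein, rose by 4.93 at T1 and 4.09 at T8. Soat1, which esterifies cholesterol for storage, rose by 2.77 and 2.06, Lipa, which frees it from esters in lysosomes, by 2.39 and 1.68, and Ch25h, the 25-hydroxylase, by 2.96 and 3.30. Cyp46a1, the neuronal 24-hydroxylase, fell by 1.24 and 0.99, with limma adjusted p at most 0.00028 for all 5 genes. After transplantation 0 of the 14 were called at 1 week, and at 2 weeks Nr1h2, an oxysterol receptor, rose by 0.45 (limma adjusted p = 0.0199). Of all features, 11.9% and 9.47% were called in these comparisons.

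**Figure D4:**
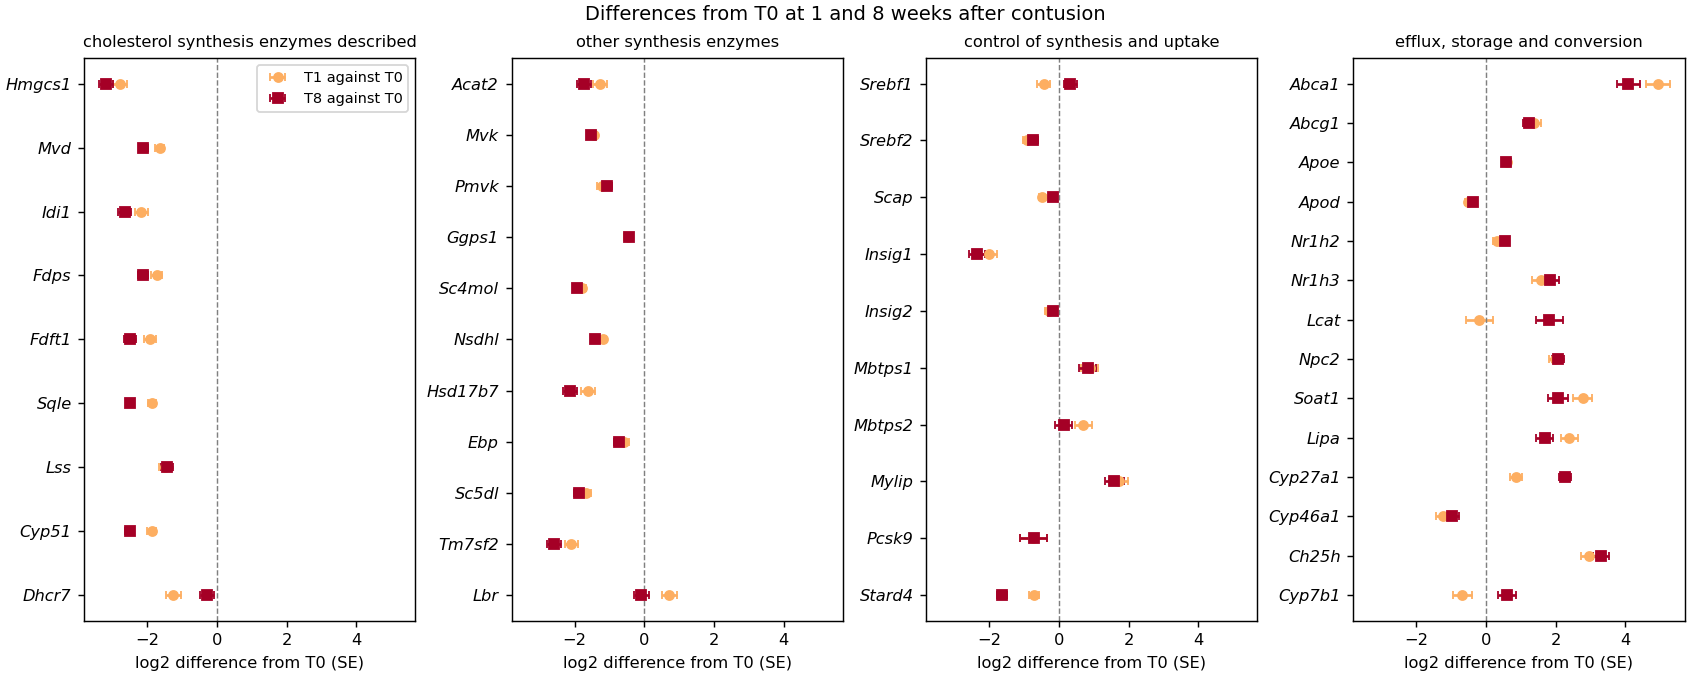
Log2 difference from T0 (horizontal axis, whiskers are SE) at 1 week and at 8 weeks after contusion for single genes (vertical axis) of 4 lists. Synthesis enzymes lie left of 0 except Lbr at T1, Insig1 lies with them, and Abca1, Soat1, Lipa and Ch25h lie right of 0.

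The makeup of the tissue moved with these values. Neuron markers were called lower for 9 of 9 at each time, and their mean level ranged from 13.97 to 14.31 on T0 arrays and from 11.70 to 12.92 over T1 to T8. Oligodendrocyte markers were called lower for 9, 10, 7 and 9 of 12 in the order of the weeks, with mean levels from 13.69 to 13.97 in T0 and from 12.71 to 13.39 after SCI. The median difference from T0 was -0.77 at T1 and -0.75 at T8 for oligodendrocyte markers, and -1.67 and -1.75 for neuron markers. Microglia and macrophage markers were called higher for 10 of 10 (9.59 to 9.64 in T0, 12.30 to 13.23 after SCI), fibroblast markers for 6 of 6 at T1 (9.30 to 9.97, 12.57 to 14.42) and Schwann cell markers for 4 of 7 at T1 (8.41 to 8.88, 9.67 to 11.69). Of the Schwann cell markers, 2 were called lower at T1. Astrocyte markers were called lower for 6 of 9 and higher for 1 at T1, and proliferation markers higher for 4 of 4. Of all features, 25.1%, 22.2%, 21.0% and 21.5% were called lower in the order of the weeks, and 19.1%, 17.7%, 17.5% and 18.2% higher. Between T1 and T8, 0 of 12 oligodendrocyte and 0 of 9 neuron markers were called, whereas 6 of 9 astrocyte and 5 of 7 Schwann cell markers rose and 4 of 4 proliferation markers fell. Between these times 5.45% of all features rose and 4.42% fell. The part of the tissue's makeup in the enzymes' differences was not tested.

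In T2_NPC, oligodendrocyte markers reached 13.27 to 13.42, beside an overlapping 12.87 to 13.27 in T2. Of the 12 markers, 2 were called, both higher, beside 9.47% of all features in either direction. Their differences ran from -0.57 to 1.43 with a median of 0.33. The highest was that of Mbp (limma adjusted p = 0.00182). In T1_NPC oligodendrocyte markers spanned 12.78 to 13.29, beside 12.71 to 12.97 in T1, with 0 of 12 called. Endothelial markers reached 7.79 to 8.38 in T1_NPC (T1 7.61 to 7.84) and 7.86 to 7.94 in T2_NPC (T2 7.35 to 7.76). Cldn5 of tight junctions, the 1 of 5 called, rose in both, by 0.51 (limma adjusted p = 0.0405) and by 0.52 (limma adjusted p = 0.045). Red blood cell markers spanned 8.74 to 10.45 in T2_NPC and 7.94 to 9.29 in T2. Hbb, a haemoglobin chain and the 1 of 3 called, was 2.11 higher (limma adjusted p = 0.00209). The part of these markers in the difference of Cyp51 was not tested.

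Enzymes also varied together within groups. After group means were removed, the 36 pairs of the 9 enzymes had a mean Pearson's r of 0.31 over the 28 arrays, from -0.43 to 0.78, beside 0.0017 over all pairs of features, 0.16 among the 13 other synthesis enzymes and 0.15 among oligodendrocyte markers. Neuron markers (0.81) and fibroblast markers (0.81) varied together more closely. Fdps with Sqle (0.78) and Hmgcs1 with Cyp51 (0.78) were the closest pairs. Mvd followed the mean of the other 8 most closely (0.72), and Lss did not follow it (-0.07). These correlations describe 28 arrays that share slides and a common normalization, and the mean was 0.45 and 0.46 in the time course alone with the session or the slide removed.

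**Figure D5:**
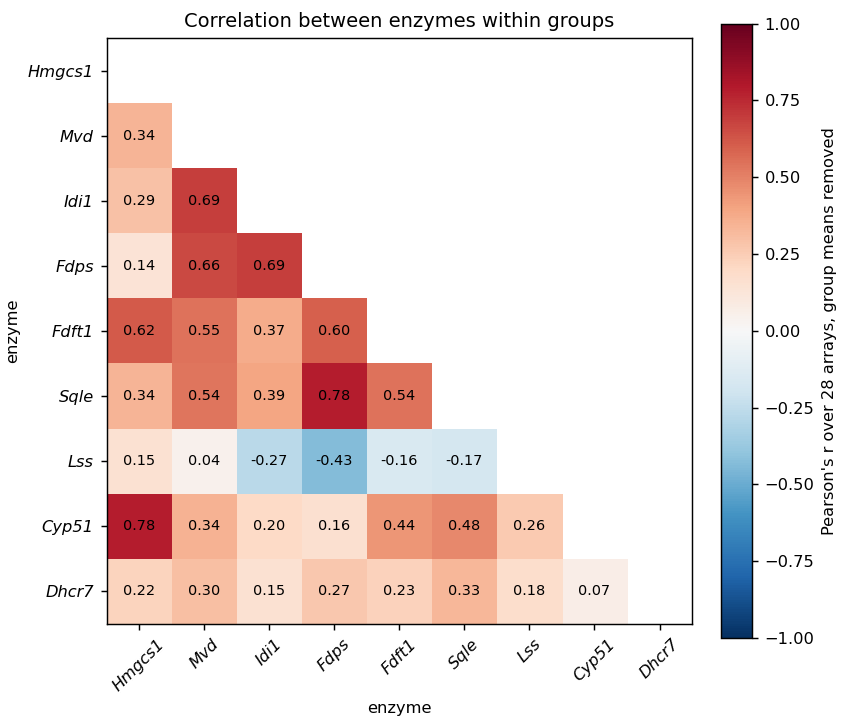
Pearson's r between each pair of the 9 enzymes (both axes) over 28 arrays after removal of the group means, with colour and number giving r. Lss has negative values with 4 enzymes, the lowest -0.43 with Fdps, and the highest values, 0.78, belong to Fdps with Sqle and to Hmgcs1 with Cyp51.

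Of 10148 named features well above background on every array, those whose levels over the 28 arrays were most like the mean of the 9 enzymes were largely of the same pathway. Among the 8 with the highest Pearson's r were Nsdhl (0.97), Sc4mol (0.97), Aacs (0.96), Mvk (0.96), Sc5dl (0.96), Pctk1 (0.96) and Scd1 (0.95), of which 4 belong to the 13 synthesis enzymes above. Aacs makes acetoacetyl-CoA for lipid synthesis, and Scd1 desaturates fatty acids. With T0 left out (24 arrays), r ranged from 0.30 for Mvk to 0.88 for Nsdhl. The 4 most opposed were Klra5, Tax1bp3, Crym and Emp3, with r between -0.97 and -0.96. The points share arrays, slides and normalization, and much of each r rests on the gap between T0 and the other groups.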

How the data were processed

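Per the labels, tissue RNA was labelled with Cy3 and hybridised to 28 single-dye arrays. The authors deposited scanner outputs, which hold processed intensity values made with Agilent Feature Extraction 10.7.1.1, and a table of log2 values after quantile normalization between arrays. The log2 table was the main source, and every column had a sample. Control spots (1639) were left out, 43379 spots were averaged to 41012 probes and these by gene name to 35469 features, with no filter on dim probes. limma 3.58.1 (R 4.3.3) was fitted with a mean per group to all 28 arrays, with empirical Bayes moderation and features were called where p after Benjamini-Hochberg adjustment was under 0.05. The number of arrays limits the precision. Per the study's methods the 4 arrays of a group are different animals.

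Replicate numbers did not pair the samples (0 of 21 group pairs with every same-numbered correlation over 0.1). Members, gene lists and comparisons were chosen with earlier results of these data known. All 9 enzymes are named, list genes where a list is described, and features among the 8 most alike and the 4 most opposed. Some list genes count in the totals of their list but are not reported here by name or in the plots. The list genes Npc1, Rbfox3, Ncmap, Hba-a1 and Mki67 were not analysed here. Endothelial, red blood cell and T cell lists were also read, with 2, 0 and 6 genes higher and none lower at T1. Promoters came from RefSeq (GRCr8), and those of Fdft1 and Sqle were not used here. Alternatives were other sources, scalings, background correction (normexp on median signals, offset 50), probe rules, blocks, thresholds and each array left out.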

Additional observations from a re-analysis of the deposited data

Results flagged for a closer look

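In 10 of 105 sets of 4 arrays (each enzyme or single probe in each group), 1 array stood apart from the other 3 by a gap beyond Dixon's critical value. Chance alone gives about 1 in 20. Among the gene means, Dhcr7 was 12.95 in T4 replicate 1 (others 12.28 to 12.37), Fdps was 14.04 in T1_NPC replicate 2 (13.47 to 13.54), Hmgcs1 was 12.07 in T1_NPC replicate 4 (11.44 to 11.53), Mvd was 12 in T1_NPC replicate 3 (12.21 to 12.23) and Sqle was 12.27 in T2 replicate 2 (11.78 to 11.84). Among single probes, the upstream probe of Fdps was 14.76 in T0 replicate 4 (14.93 to 14.95) and 12.56 in T4 replicate 1 (12.76 to 12.78). The downstream probe of Hmgcs1 was 16.99 in T0 replicate 2 (16.46 for each of the others), its upstream probe was 8.80 in T4 replicate 4 (9.44 to 9.48), and the downstream probe of Idi1 was 14.70 in T0 replicate 4 (15.06 to 15.11). No enzyme had a called difference between the effects of transplantation at 1 and 2 weeks (0 of 9, limma).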

How the results depend on the processing

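Medians of the 9 enzymes against T0 kept their sign under every alternative run. With the scanner outputs under the samples they were deposited for they were -0.64 (T1), -0.42 (T2), -1.14 (T4) and -1.25 (T8), other synthesis enzymes called lower were 0 at each time, called enzymes were 0 for T8 against T1 and for both transplanted groups, Cyp51 turned to -0.77 at 1 week, and the correlation within groups was 0.75. Scaling to the 75th percentile gave -2.25 (T2) and -2.43 (T4) and moved the median of all features at T1 from -0.10 to -0.28, and normexp -2.26 (T8). Enzymes called for T8 against T1 were 0 with the 12 undisputed arrays, 3 with only the compared groups in the fit and 0 at 2-fold or more, where both transplanted groups also had 0, whereas 6 were called with the slide and 7 with the session as a fixed block. For T1_NPC against T1, 2 enzymes were called after normexp (with Fdps) and by the brightest probe (with Hmgcs1). The correlation within groups was 0.4647 with the slide and 0.4498 with the session as a block. Leaving out 1 array at a time gave 3 to 5 calls for T8 against T1 and 1 to 2 for T1_NPC against T1, and 2 came without T2 replicate 2 (Fdps) or T1_NPC replicate 1 (Sqle). With the replicate block, the counts of called enzymes were unchanged (5 for T8 against T1, and 1 for each transplanted group). With injured controls of the second session only, an alternative chosen after seeing the data, Cyp51 was 0.56 at 1 week and 0.87 at 2 weeks (limma adjusted p = 0.0174 and 0.00154). Over all features, calls for T8 against T1 (3501) were 0 with the outputs as deposited and 1363 with the 12 arrays. Those for T1_NPC against T1 (4225) were 0 as deposited and 7299 after percentile scaling, and those for T2_NPC against T2 (3359) 46 as deposited and 7399 with the 12 arrays. The causes of these shifts were not tested. For the other alternatives the calls over all features are not reported here, and nothing is read from their counts of enzymes.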
